A study of Drosophila melanogaster with 6 samples.

Results

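Synaptic vesicle and active zone genes were followed in mushroom body output neurons whose bantam microRNA was sequestered. The set has 36 genes out of 17117 in the authors' deposited table, chosen by symbol from a list of vesicle fusion, vesicle recycling and active zone genes. Of these, 34 were found under the listed symbol, and the other 2, the cysteine string protein gene and the gene of stoned A, stand in the table as Csp and stnA. Reads were found for 33 of the 36 genes, and stnA, stnB and Nlg1 had none in any library.

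The cells were γ5β′2a, β′2mp and β′2mp_bilateral output neurons of adult Drosophila melanogaster, sorted by fluorescence. Brains came from mated females 3 to 4 days after eclosion, at ZT12 to ZT13.5 (zeitgeber time, counted from lights-on). In the bantam sponge group the genotype was UAS-CD8::GFP with R14C08-p65.AD over UAS-bantam_sponge and R15B01-GAL4.DBD over UAS-bantam_sponge. In the scramble sponge group both sponge transgenes were UAS-scramble_sponge, and the GFP reporter and both driver parts were the same. A sponge is a transcript with binding sites that sequester a microRNA, and here it was expressed only where both parts of the split-GAL4 driver (labelled MB011B) are active, so 3 types of neuron were sequenced together. Each group had 3 libraries labelled as biological replicates, and the sources used here do not give how many brains entered a library. The question put by the comparison is how transcript levels depend on free bantam in these cells.

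Transmitter leaves a neuron when a synaptic vesicle fuses with the membrane at the active zone. SNARE proteins on the vesicle and on the plasma membrane zip together, synaptotagmins sense the calcium that enters, and scaffold proteins such as Bruchpilot and RIM hold channels and vesicles in place. The vesicle membrane is then taken back by clathrin and dynamin and refilled. In the fly these proteins are best known from the larval neuromuscular junction and from photoreceptor and mushroom body synapses.

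The authors' deposited table gives for each gene a log2 fold change of bantam sponge against scramble sponge, an unadjusted p from an edgeR exact test, and a level. The level is the log2 of the mean CPM over both genotypes, where CPM is the reads of the gene per megaread of its library. The deposited table holds no value for a single library, so no per-library values or SD can be given. Instead, a mean CPM for each genotype was worked out from its fold and level, and each fold is given with the 95% interval that its deposited p implies for 3 libraries a genotype. Library sizes recovered from the lowest values of the table were 8.18 to 119.1 megareads in bantam sponge and 5.31 to 98.0 megareads in scramble sponge. In sorted bulk samples, fewer cells of a type and less RNA per cell cannot be told apart. The replicates are biological by their labels, but whether each came from separate flies was not stated. The p-values rest only on the spread between these libraries, as the authors' test modelled it.

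After Benjamini-Hochberg adjustment of the authors' edgeR exact test over all 17117 genes, no synaptic gene passed 0.05, and neither did any other gene of the table (0.00%). All 36 genes had an adjusted p of 1. At an unadjusted p under 0.05 there was 1 of the 33 genes with reads, the kinase gene Lrrk, which was lower in bantam sponge. Over all genes this share was 2.27% (388 genes), of which 1.69% were lower and 0.573% higher, and over the 9286 genes with reads it was 4.18% (3.12% lower and 1.06% higher). Over the 3400 genes with a level of 6 or more it was 1.47% (1.03% lower and 0.441% higher), and among the 31 synaptic genes at such levels there was none. The member with the next smallest p was the priming factor gene unc-13, with an exact-test p of 0.251 (authors' deposited table). Of the 33 genes with reads, 21 had folds above 0 and 12 below, with a median log2 fold change of 0.26. The median was −0.13 over all genes with reads and 0.04 over those with a level of 6 or more. Folds above 0 made up 46.5% and 51.5% of these backgrounds. The folds of 25 of the 33 (75.8%) lay within 1 log2 unit of 0, against 38.1% of all genes with reads. At levels of 6 or more these shares were 24 of 31 (77.4%) among the synaptic genes and 68.5% among all genes. These counts describe the list and its background, and no set test was made.

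**Figure D1:**
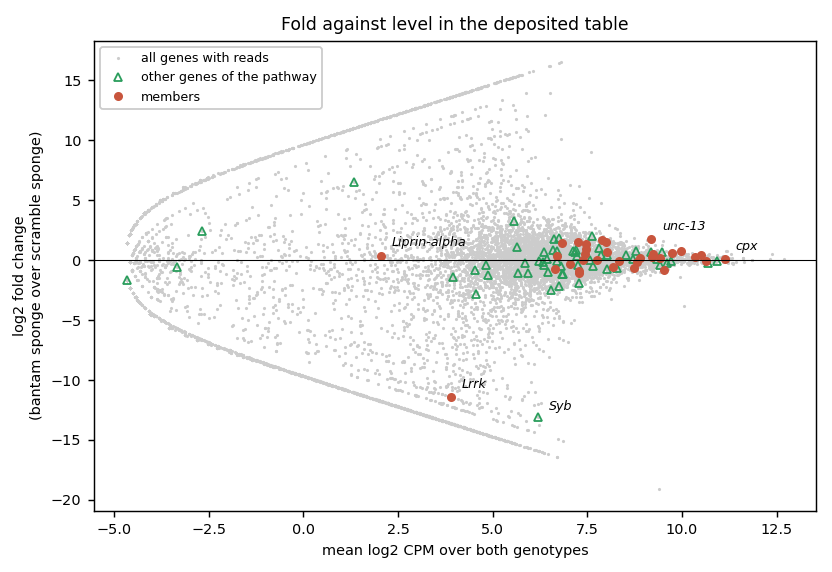
Log2 fold change (vertical axis, positive where higher in bantam sponge than in scramble sponge) against mean log2 CPM (horizontal axis) in the authors' deposited table, for synaptic genes (filled circles), other genes of the pathway (triangles) and all genes with reads (grey dots). Most synaptic genes lie at the right, where folds are close to 0, and Lrrk at −11.41 and Syb at −13.07 lie far below them.

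Most of the synaptic genes drew many reads. Of the 36, 31 (86.1%) had a level of 6 log2 CPM or more, against 19.9% of all genes; this scale is not corrected for length. For the 32 genes with levels inferred in each genotype, the sum was 17687 CPM in bantam sponge and 14649 CPM in scramble sponge. To allow for length, levels were also taken per kilobase of exon. This exon length covers all annotated transcripts of a gene, with bases shared with other genes included, so comparisons between genes are approximate. On this scale the same 6 of these 32 genes, Syt4, nSyb, shi, Rop, Sap47 and cpx, took the first 6 places in both genotypes, in a different order. Their levels ran between 204 and 410 CPM per kb in bantam sponge and between 188 and 287 CPM per kb in scramble sponge. Lrrk was last in both and bchs next to last.

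**Figure D2:**
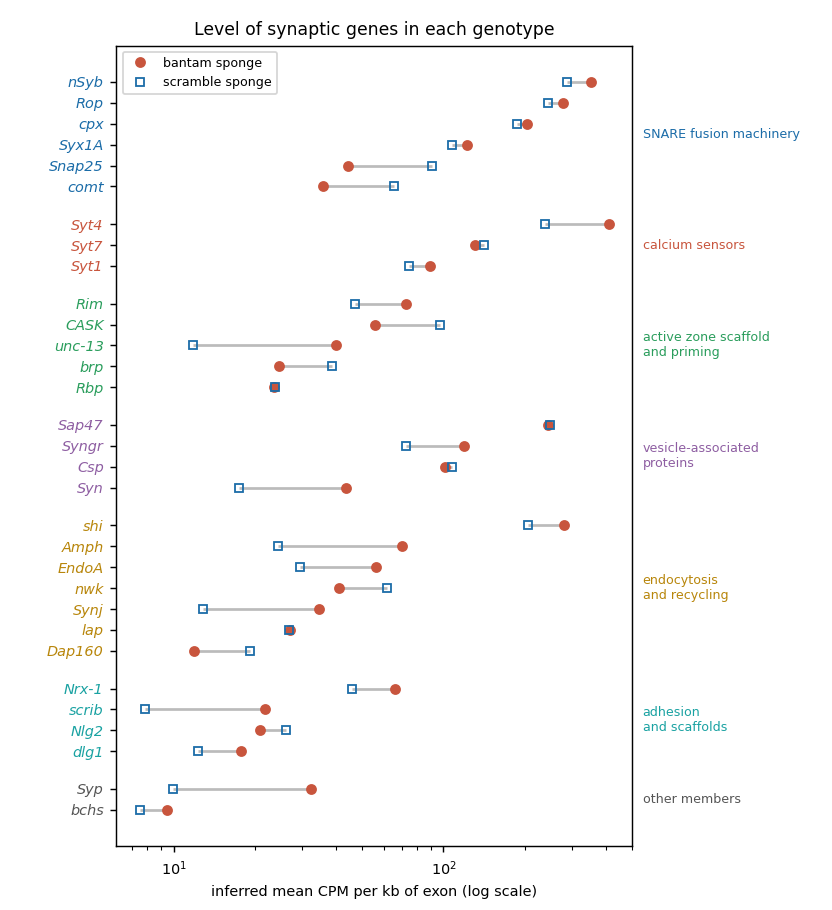
Inferred mean CPM per kb of exon (log axis) of 31 synaptic genes in bantam sponge (filled circles) and scramble sponge (open squares), grouped by role. The pairs lie close together for Sap47, lap and Rbp, and apart for unc-13, with 40.0 CPM per kb in bantam sponge and 11.8 CPM per kb in scramble sponge.

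The SNARE machinery was present throughout. The complexin gene cpx (3R, 4280221 to 4304604, dm6), which clamps and promotes fusion, was inferred at 2328 CPM in bantam sponge and 2140 CPM in scramble sponge. Its log2 fold change was 0.12 (95% interval −2.66 to 2.91, p = 0.928, exact test, authors' deposited table). The vesicle SNARE gene nSyb (3L, 1630348 to 1637752) stood at 1437 CPM in bantam sponge and 1168 CPM in scramble sponge. Rop, the Munc18 protein that chaperones syntaxin, stood at 731 and 644 CPM in bantam and scramble sponge, and Syx1A, the syntaxin of the plasma membrane, at 511 and 446 CPM. In the authors' deposited table the log2 fold changes of Rop and Syx1A were 0.18 (−2.82 to 3.19) and 0.19 (−2.94 to 3.33). The levels of the other pair were lower in bantam sponge, without passing any test. Snap25, the third SNARE of the complex, stood at 101 CPM in bantam sponge and 207 CPM in scramble sponge, with a log2 fold change of −1.04 (−5.05 to 2.98, p = 0.576, exact test, authors' deposited table). The NSF gene comt, whose ATPase takes spent SNARE complexes apart, had 111 CPM in bantam sponge and 202 CPM in scramble sponge, with a fold of −0.86 (−5.16 to 3.43, p = 0.658, exact test, authors' deposited table).

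The calcium sensors gave 2 folds above and 1 below 0. Syt4 (3R, 7266065 to 7270809), a synaptotagmin of neuronal and postsynaptic vesicles, stood at 410 CPM per kb in bantam sponge and 238 CPM per kb in scramble sponge. Syt7, a synaptotagmin with high calcium affinity, stood at 130 and 141 CPM per kb in bantam and scramble sponge. Syt1, the main sensor of fast release, stood at 89.5 CPM per kb in bantam sponge and 74.8 CPM per kb in scramble sponge. By level per length the order in both genotypes was therefore Syt4, Syt7 and Syt1. In CPM, not corrected for length, Syt1 (644 and 538 in bantam and scramble sponge) stood above Syt7 (431 and 466). Whether the calcium sensors differed from each other beyond the spread between libraries was not tested. The authors' deposited table gives Syt4, Syt7 and Syt1 log2 fold changes of 0.78 (−2.09 to 3.65), −0.11 (−3.28 to 3.06) and 0.26 (−2.76 to 3.28). None had an unadjusted p under 0.05.

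Among active zone genes the folds went both ways, 3 above and 3 below 0. The Munc13 gene unc-13 (4, 867824 to 912331), which primes vesicles for fusion, had 905 CPM in bantam sponge and 266 CPM in scramble sponge. Its log2 fold change of 1.77 (−1.41 to 4.95, p = 0.251, exact test, authors' deposited table) was the highest of all the synaptic genes. Of its exon length, 18.7% is shared with noncoding genes of the opposite strand, and the libraries do not mark strand. Rim, an organiser of release sites, had 1039 CPM in bantam sponge and 669 CPM in scramble sponge (log2 fold change 0.63, −2.33 to 3.60, authors' deposited table). The ELKS-family scaffold gene brp had 330 CPM in bantam sponge and 516 CPM in scramble sponge, with a fold of −0.65 (−3.97 to 2.67, p = 0.680, exact test, authors' deposited table). The RIM-binding protein gene Rbp was at 215 CPM in bantam sponge and 217 CPM in scramble sponge, with an interval of −3.90 to 3.87 around a fold of −0.01 (authors' deposited table). CASK, a membrane-associated guanylate kinase, had 532 CPM in bantam sponge and 931 CPM in scramble sponge (−0.81, −3.78 to 2.16, authors' deposited table), and 28.0% of its exon length is shared with the gene CRG on the same strand. Liprin-alpha (2L, 6723903 to 6732766), which helps assemble active zones, lay below the cut of 3 log2 CPM set here for a level in each genotype. In the authors' deposited table its mean over both was 2.05 log2 CPM, and its log2 fold change was 0.39 (p = 0.926, exact test). None of its exon length is shared with another listed gene.

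Proteins carried on vesicles gave 2 folds above and 2 below 0. Sap47, a synapse-associated protein, stood at 1558 CPM in bantam sponge and 1592 CPM in scramble sponge, and its log2 fold change was −0.03 (−2.85 to 2.79, authors' deposited table). The chaperone gene Csp was at 313 CPM in bantam sponge and 331 CPM in scramble sponge, and the synaptogyrin gene Syngr at 322 and 197 CPM in bantam and scramble sponge. Synapsin, Syn, which ties vesicles into a reserve pool, had 254 CPM in bantam sponge and 101 CPM in scramble sponge. Its log2 fold change was 1.32 (−2.54 to 5.19, p = 0.463, exact test, authors' deposited table).

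Of the 9 endocytosis and recycling genes, 7 had reads, 5 with folds above 0 and 2 below. The dynamin gene shi (X, 15892116 to 15906716), which pinches vesicles off the membrane, had 1676 CPM in bantam sponge and 1237 CPM in scramble sponge (log2 fold change 0.44, −2.40 to 3.27, authors' deposited table). Amph, a membrane-bending BAR-domain protein, had 224 CPM in bantam sponge and 78.0 CPM in scramble sponge, with a fold of 1.52 (−2.53 to 5.58, p = 0.419, exact test) in the authors' deposited table. Synj, the phosphatase that strips clathrin coats, and EndoA, which recruits it, had 165 and 233 CPM in bantam sponge against 61.1 and 122 CPM in scramble sponge. In the authors' deposited table their folds were 1.43 (−2.93 to 5.79) and 0.94 (−3.06 to 4.93). The clathrin adaptor gene lap, the fly AP180, was at 167 CPM in bantam sponge and 164 CPM in scramble sponge. The scaffold genes nwk (−0.60, −4.12 to 2.92) and Dap160 (−0.69, −5.72 to 4.33) had log2 fold changes below 0 in the authors' deposited table. Dap160, an intersectin, was at 76.2 CPM in bantam sponge and 123 CPM in scramble sponge, and had the widest interval of all the synaptic genes.

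The remaining endocytosis genes, stnA and stnB, encode the stoned proteins of vesicle recycling and had no read in any library. Both lie on X from 22980722 to 23004648 (dm6) on the same strand, and the annotation gives them the same exons, so that 100% of the 8332 bases of exon in each is shared with the other. Of the 373 protein-coding genes of the table whose exons are wholly shared with exons of other listed genes, all 373 (100%) had no read. Among the 9362 with no shared exon base, 4000 (42.7%) had none, and among the 3432 with up to 25% shared it was 645 (18.8%). A 0 in such a row, those of stnA and stnB included, therefore cannot be read as absence of the transcript. Nlg1 is different, since none of its 6006 bases of exon is shared. The 0 of Nlg1 allows up to 0.0175 CPM in bantam sponge and 0.0204 CPM in scramble sponge, which is 3 reads over the libraries of a genotype, for counting error only.

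**Figure D3:**
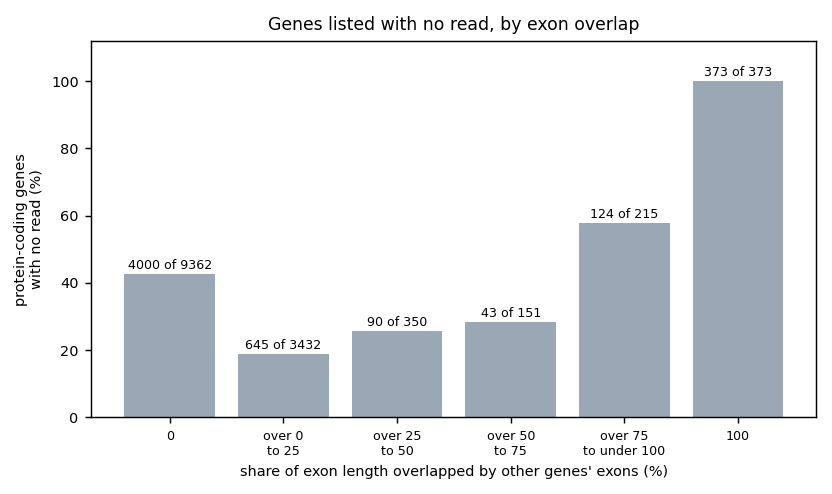
Share of protein-coding genes with no read in any library (vertical axis, %), by the share of their exon length that exons of other listed genes overlap (horizontal axis, %), with gene counts above the bars. All 373 genes in the last bar, which include stnA and stnB, had no read.

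Trans-synaptic adhesion genes and their scaffolds had 3 folds above 0 and 1 below among the 4 with reads. Neurexin, Nrx-1 (3R, 22468512 to 22486969), the presynaptic partner of neuroligins, had 709 CPM in bantam sponge and 489 CPM in scramble sponge (log2 fold change 0.54, −2.59 to 3.66, authors' deposited table). The neuroligins, its postsynaptic partners, were uneven. Nlg2 stood at 20.9 CPM per kb in bantam sponge and 26.1 CPM per kb in scramble sponge, Nlg3 at 11.1 and 11.4, and Nlg4 at 1.33 and 3.59 CPM per kb in bantam and scramble sponge, while Nlg1 had no read. The Scribble module genes scrib and dlg1, which encode scaffolds of cell polarity and of the postsynapse, had 374 and 204 CPM in bantam sponge against 134 and 142 CPM in scramble sponge. The authors' deposited table gives them log2 fold changes of 1.48 (−2.13 to 5.09, p = 0.386, exact test) and 0.52 (−3.34 to 4.39, p = 0.769, exact test).

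The other 3 genes of the set are not vesicle or active zone proteins in the narrow sense. Syp is the fly symbol of Syncrip, an RNA-binding protein, and not of a synaptophysin. It had 363 CPM in bantam sponge and 111 CPM in scramble sponge (log2 fold change 1.71, −1.82 to 5.24, p = 0.311, exact test, authors' deposited table), the second highest fold of the set. The autophagy adaptor gene bchs had 115 CPM in bantam sponge and 91.2 CPM in scramble sponge.

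Lrrk (3R, 20635480 to 20644279, dm6), the fly counterpart of the human kinases LRRK1 and LRRK2, of which LRRK2 is the Parkinson's disease gene, was the member with an unadjusted p under 0.05, lower in bantam sponge. Its level was inferred as 0.00856 CPM in bantam sponge and 29.8 CPM in scramble sponge. The scramble sponge value is a mean, and how its reads were spread over the libraries cannot be seen. The same limit holds for the markers below. With all Lrrk reads of bantam sponge in a single library, this level would equal 0.210 reads in the smallest library or 3.06 reads in the largest. Reads are whole, so by the recovered sizes the smallest library cannot have held them. The log2 fold change of −11.41 in the authors' deposited table depends on the prior count added to so few reads, and no interval was computed for it (p = 0.0380, exact test, adjusted p = 1 by Benjamini-Hochberg over all genes). Markers of other cells stood beside this difference. The sums given cover markers with a level of 3 or more, and the counts of folds cover all with reads. Those counts take in markers with few reads, such as prt (Kenyon cell), Lsp2 (fat body) and wrapper (glia). Their levels were −4.65, −4.66 and −3.79 log2 CPM, against −4.73 for genes with no read. Of 7 hemocyte markers with reads 6 had folds below 0, and the summed inferred level of the list was 870 CPM in bantam sponge and 3790 CPM in scramble sponge. Most of the scramble sponge sum was PPO1 (0 and 1336 CPM in bantam and scramble sponge) and PPO2 (142 and 1989 CPM). Most of the bantam sponge sum was Pxn, the marker above 0 (728 and 443 CPM). The hemocyte genes PPO1, Sr-CI, Hml and srp had no read in bantam sponge, and He none in any library. Of 8 photoreceptor markers with reads 7 were below 0, with 99.1 CPM in bantam sponge and 271 CPM in scramble sponge, while ninaE, Rh6 and Arr2 had no read in bantam sponge and Rh3, Rh5 and Arr1 none in any library. Rh4, the photoreceptor marker above 0, had no read in scramble sponge. Of 5 fat body markers with reads 3 were below 0 (231 and 161 CPM in bantam and scramble sponge), with Fbp1 at no read. Most of that sum was FASN1, with 231 CPM in bantam sponge and 97.4 CPM in scramble sponge. Of the yolk protein genes, Yp1 had 0 CPM in bantam sponge and 32.8 CPM in scramble sponge (p = 0.0335, exact test, authors' deposited table), and Yp3 had 0.00404 and 30.3 CPM in bantam and scramble sponge (p = 0.0271, exact test). Of 8 Kenyon cell markers 7 were below 0 (658 and 814 CPM in bantam and scramble sponge), with ey at no read in bantam sponge. Most of the bantam sponge sum was dac, the Kenyon cell marker above 0 (460 and 298 CPM in bantam and scramble sponge). Of 8 glial markers 6 were above 0, with 2202 CPM in bantam sponge and 1040 CPM in scramble sponge, and moody had no read in scramble sponge. The glial markers below 0 were wrapper and the glial regulator gene repo, which had 0.980 CPM in bantam sponge and 102 CPM in scramble sponge. The 6 pan-neuronal markers, none of them a member, divided 3 and 3, at 3790 CPM in bantam sponge and 3341 CPM in scramble sponge. The part of other cells in the Lrrk difference was not tested.

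**Figure D4:**
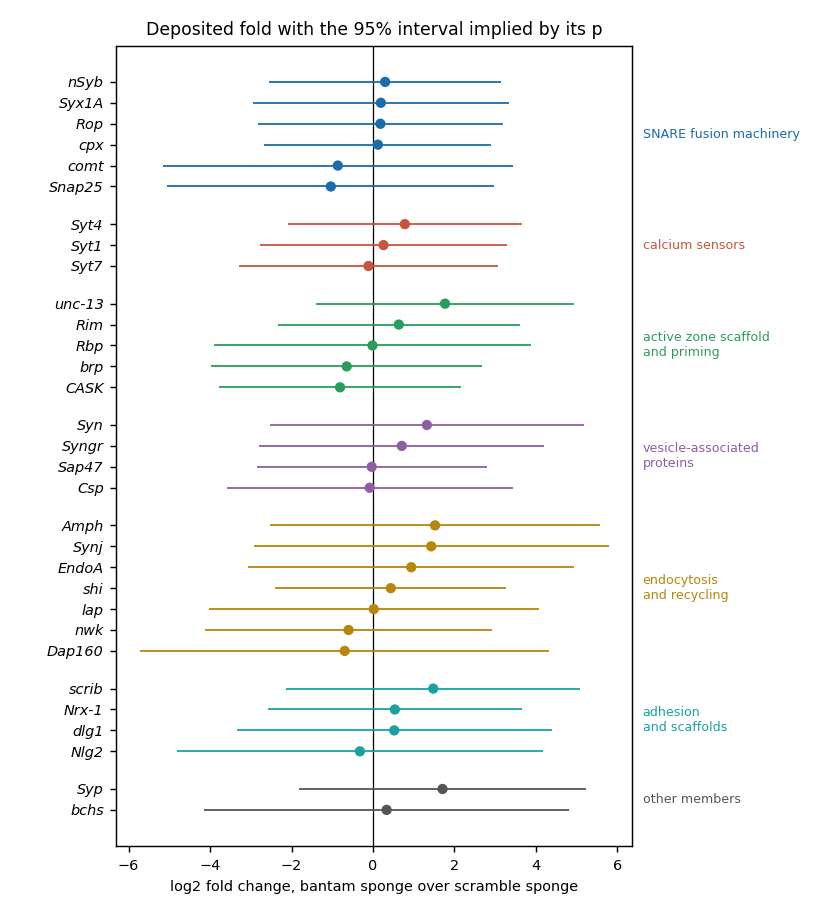
Log2 fold change (horizontal axis, positive where higher in bantam sponge than in scramble sponge) of 31 synaptic genes from the authors' deposited table, with the 95% interval implied by the deposited p (lines) and grouped by role. Every interval includes 0, and folds run from −1.04 for Snap25 to 1.77 for unc-13.

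The intervals set what could be seen. For the 31 genes with an interval the margin on either side of the log2 fold change ran from 2.78 for cpx to 5.03 for Dap160, with a median of 3.51. A difference would therefore have had to reach 6.89-fold for cpx, 11.4-fold for the median gene and 32.6-fold for Dap160 to give an unadjusted p of 0.05. Changes smaller than that were not detectable for these genes, and a p above the threshold does not show that the levels were equal. The margins correspond, through the authors' test, to a coefficient of variation between libraries. It was 1.08 for cpx, 1.30 for the median gene and 1.68 for Dap160, counting error included. These values are worked back from p and are not spreads measured from values per library. Margins were close among genes of high level, with quartiles of 2.80 and 2.86 for 116 genes from 10 log2 CPM up. Whether that test drew the dispersions of genes together is not given. Each gene was set against all genes with an interval in the same step of 0.5 log2 CPM, but the last step was open above 10. Of the 31, 20 (64.5%) had a margin below the median of their step and 14 (45.2%) below its lower quartile. Margins narrow with level, from a median of 4.54 in the step from 7 to 3.81 in the step from 7.5. The place of a gene within its step therefore enters these counts, and they do not compare genes at equal level. In the open step cpx, at a level of 11.1, lay below the lower quartile. The other genes of the pathway gave 62.7% and 37.3% of 51 in the same counts. The 4 genes above the upper quartile of their step were unc-13, brp, CASK and Nrx-1. These comparisons of margins are a description without a test.

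**Figure D5:**
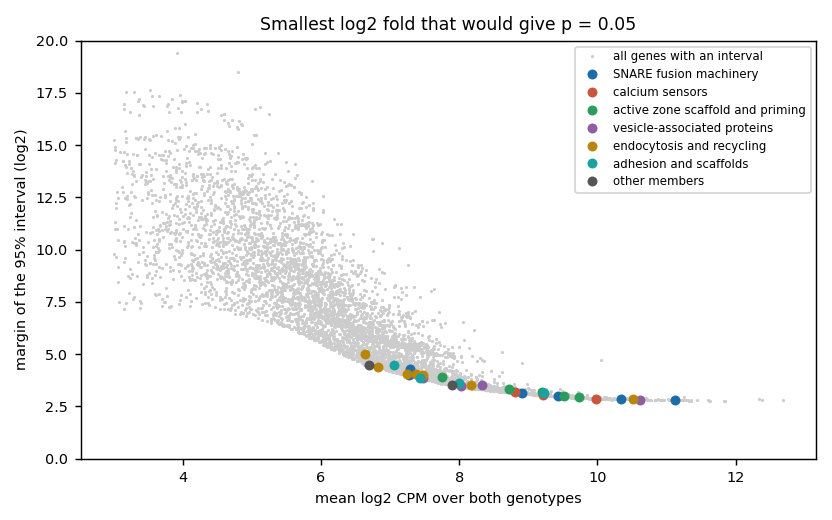
Margin of the 95% interval of the log2 fold change (vertical axis), which is also the smallest log2 fold that would give an unadjusted p of 0.05, against mean log2 CPM (horizontal axis) for 31 synaptic genes by role (coloured) and all genes with an interval (grey). The margin narrows with level, to 2.78 at cpx.

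Of 58 further genes of release, active zone, endocytosis, adhesion and vesicle filling, 56 had reads, 24 with folds above 0 and 32 below, and a median log2 fold change of −0.05. At an unadjusted p under 0.05 there was 1 of the 56, the synaptobrevin gene Syb, and at an adjusted p under 0.05 none (edgeR exact test by the authors). Over all genes with reads, 4.18% had an unadjusted p under 0.05, and 46.5% had folds above 0. Syb, the vesicle SNARE used outside regulated synaptic release, was inferred at 0.0148 CPM in bantam sponge and 148 CPM in scramble sponge (p = 0.00298, exact test, authors' deposited table). The bantam sponge level would equal 5.29 reads if all lay in the largest library. In the smallest it would be 0.363 reads, which cannot be since reads are whole. How the scramble sponge reads were spread over the libraries cannot be seen. Here too the part of other cells was not tested. Its neuronal paralogue nSyb had a log2 fold change of 0.30 (−2.54 to 3.14, p = 0.826, exact test, authors' deposited table); whether the folds of these paralogues differ was not tested. The NSF gene comt was read at 35.9 CPM per kb in bantam sponge and 65.3 in scramble sponge, and the level of its paralogue Nsf2 over both genotypes was −2.67 log2 CPM, against 7.29 for comt, in the authors' deposited table. The exon lengths of Nsf2 and comt are 3.52 kb and 3.09 kb, and the log2 fold change of Nsf2 was 2.46 (p = 0.615, exact test, authors' deposited table). Snap24, a paralogue of Snap25, stood at 17.5 CPM per kb in bantam sponge and 37.6 in scramble sponge, against 44.3 and 90.7 for Snap25.

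The 5 of the 58 with the highest log2 CPM, not corrected for length, were Hsc70-4, VGlut, unc-104, Rab3 and AP-1-2beta. The clathrin-uncoating chaperone gene Hsc70-4 had 1923 CPM in bantam sponge and 1961 CPM in scramble sponge. These neuron types are known to use glutamate. The vesicular glutamate transporter gene VGlut had 271 CPM per kb in bantam sponge and 310 CPM per kb in scramble sponge, while the acetylcholine transporter gene VAChT had 2.47 and 5.79 CPM per kb in bantam and scramble sponge. The GABA transporter gene VGAT was also read, at 62.7 CPM per kb in bantam sponge and 17.0 CPM per kb in scramble sponge (log2 fold change 1.88, −3.58 to 7.35, p = 0.439, exact test, authors' deposited table). The vesicle kinesin gene unc-104 (831 and 847 CPM in bantam and scramble sponge) and the vesicle GTPase gene Rab3 (714 and 847 CPM) are given log2 fold changes of −0.03 (−3.03 to 2.97) and −0.25 (−3.22 to 2.72) by the authors' deposited table. AP-1-2beta, the shared clathrin adaptor beta subunit, had 887 CPM in bantam sponge and 545 CPM in scramble sponge. By group, folds above 0 were held by 7 of 19 other release genes with reads, 2 of 6 active zone genes and 9 of 18 endocytosis genes. The same held for 5 of 8 adhesion genes and 1 of 5 vesicular transporters. Of the transporters below 0, prt and Vmat lay at −4.65 and −3.33 log2 CPM, where few reads set the sign. Genes with no read stand at −4.73. Among the 58, the BLOC-1 genes Snapin and Dysb had no read. All (100%) of the exon length of Snapin, and none of that of Dysb, is shared with another listed gene.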

How the data were processed

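Poly(A) RNA from sorted neurons was amplified over 25 cycles by a modified SMART-seq2 protocol, per the labels and the series design, and 2 replicates were sequenced on a NextSeq (paired 75 bases) and 1 on a HiSeq (paired 150 bases). The instrument of each replicate is not given in the sources used here, and no platform term could be fitted. The submitters' processing notes name STAR, Picard, HTSeq, edgeR and the build dm6, without versions. The authors deposited log2 fold changes, mean log2 CPM and unadjusted p-values from an edgeR exact test of 3 against 3 libraries, per the file headers. No values per library were analysed here.

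From these, Benjamini-Hochberg adjustment was made over all 17117 rows (threshold 0.05, two-sided). Library sizes were solved from 688 genes with 1 read in 1 library, assuming that tool's default prior counts, 2 in the mean and 0.125 in the fold. Genotype means, for levels of 3 log2 CPM or more, remove these prior counts and weight libraries equally. At a mean log2 CPM of 0 or more, a genotype was taken to have no read when the absolute fold exceeded that mean by over 9.3. Intervals, solved where the excess was under 5, invert the beta form of the exact test. They take the authors' dispersion as known. The inversion was tried on data simulated at levels of 6 log2 CPM or more, with p computed from the true dispersion. That trial does not test how the authors estimated dispersion. Exon lengths and overlaps come from Ensembl release 115 (same assembly as dm6), in which 16999 rows matched a gene, 3735 through a synonym. Overlaps count both strands, since the libraries do not mark strand.

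The members and lists were chosen with earlier results of these data known. The rule for named genes asked for values of members under an unadjusted p of 0.05 and of the extremes of each role group, and, of the further pathway genes, of those under 0.05 and the 5 highest in log2 CPM. Values of the other members are given as well, and paralogues of members, VAChT, VGAT, Snapin and Dysb were added after their values were seen. A planned search for bantam seed matches was not run, for want of sequence. Calculations used Python 3.11.15, numpy 2.4.6, scipy 1.17.1 and pandas 2.3.3.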

Additional observations from a re-analysis of the deposited data

How the results depend on the processing

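No paired analysis was possible because the table holds 1 comparison and no value per library, and for the same reason no replicate could be left out. No synaptic gene passed an adjusted p of 0.05 under Holm adjustment, over genes with reads or over genes at 3 log2 CPM or more, where the smallest adjusted p of a member was 0.842. The count of 1 gene at an unadjusted p under 0.05 was 0 at a threshold of 0.01 and, in an alternative chosen after seeing the data, 0 without Lrrk. The median log2 fold change stayed between 0.22 and 0.28, and the count of folds above 0 between 20 and 21, over all filters and centring on abundant genes. The median margin stayed between 3.51185 and 3.5144 under an exact negative binomial form, equal library sizes and folds without prior counts. The median fold of active zone genes changed sign, from 0.19 with Liprin-alpha to −0.01 without it. By the cut set here, genotype means and intervals were not computed for genes with under 3 log2 CPM.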
